A study of Mus musculus with 24 samples.

Results

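The Hox cluster genes were taken as every gene whose symbol in the deposited tables is Hox followed by a cluster letter from a to d and a number, the number being the paralogue group. They were 30 of 23177 genes in the table of the Zbtb16 mice and 26 of 21688 genes in the table of the Sox3 mice. The 26 genes were among the 30, and the rule used the symbol alone and no measured value. RNA had been sequenced from spermatogonia (SPG, the mitotic germ cells at the base of the seminiferous tubule) of mice at postnatal day 7. Cells were enriched with magnetic beads carrying antibodies to THY1, for undifferentiated spermatogonia (uSPG), or to KIT, for differentiating spermatogonia (dSPG), and the testes of 3 mice were pooled for each isolation. One table compared WT mice with Zbtb16 null mice, homozygous for the luxoid allele (Zbtb16 lu/lu), a mutation carried by every cell of the animal. The other compared WT mice with Sox3 cKO mice, in which a floxed Sox3 allele is removed in germ cells by Cre driven from Ddx4 (Vasa), so that somatic cells of these testes keep the gene. All mice were on a C57BL/6J background. The study's methods name heterozygous littermates beside WT ones as controls, while the labels call every control WT. Each table held 12 libraries, 3 for each genotype and fraction, which gave 24 libraries in 8 groups. Nothing in the labels says that the 3 libraries of a group came from separate litters, so p-values measure the spread between these isolations.

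Hox genes encode homeodomain transcription factors that lie in clusters, and within a cluster genes of low paralogue number act towards the head and genes of high number towards the tail of the embryo. Neighbouring members are often switched on together, and cells derived from the trunk mesoderm, such as fibroblasts and the somatic cells of the gonad, keep part of this code after birth. HOX proteins bind DNA with partners of the PBX, MEIS and PKNOX families, and silent clusters are held by Polycomb complexes. ZBTB16 (PLZF) is known from the limb, where it restrains Hoxd genes and where its loss alters skeletal patterning.

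The promoters of Hoxd10, Hoxd9, Hoxd8 and Hoxd3 are shown because these neighbours were among the members of highest level and had the same order of groups in the Zbtb16 table. Windows run from 250 bases before to 50 bases after the start site, on the plus strand of chromosome 2, from RefSeq on GRCm38.p6, the build (mm10) of the files. Of the 30 members, 15 had a window in the RefSeq table. Capitals mark matches, on either strand, to CCAAT or to the GC box GGGCGG. The Hoxd10 window is chr2:74691641-74691940, the Hoxd9 window is chr2:74697513-74697812, the Hoxd8 window is chr2:74704365-74704664 and the Hoxd3 window is chr2:74711743-74712042.
Hoxd10: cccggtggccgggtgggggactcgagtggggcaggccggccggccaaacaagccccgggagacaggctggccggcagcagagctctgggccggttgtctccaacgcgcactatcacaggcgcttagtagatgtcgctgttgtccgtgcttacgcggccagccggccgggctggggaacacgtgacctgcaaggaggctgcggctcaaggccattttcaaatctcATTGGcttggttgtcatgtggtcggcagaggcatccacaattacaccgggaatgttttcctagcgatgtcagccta
Hoxd9: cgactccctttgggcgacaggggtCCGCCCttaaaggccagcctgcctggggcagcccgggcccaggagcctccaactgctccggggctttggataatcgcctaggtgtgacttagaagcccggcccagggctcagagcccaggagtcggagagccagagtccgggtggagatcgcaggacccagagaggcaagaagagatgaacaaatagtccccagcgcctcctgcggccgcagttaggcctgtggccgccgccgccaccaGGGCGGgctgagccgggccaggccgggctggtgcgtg
Hoxd8: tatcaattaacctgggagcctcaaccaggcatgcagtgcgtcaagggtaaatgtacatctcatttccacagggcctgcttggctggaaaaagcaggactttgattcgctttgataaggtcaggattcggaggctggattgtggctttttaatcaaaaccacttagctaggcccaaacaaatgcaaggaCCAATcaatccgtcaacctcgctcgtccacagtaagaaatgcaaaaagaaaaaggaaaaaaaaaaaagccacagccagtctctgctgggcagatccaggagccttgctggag
Hoxd3: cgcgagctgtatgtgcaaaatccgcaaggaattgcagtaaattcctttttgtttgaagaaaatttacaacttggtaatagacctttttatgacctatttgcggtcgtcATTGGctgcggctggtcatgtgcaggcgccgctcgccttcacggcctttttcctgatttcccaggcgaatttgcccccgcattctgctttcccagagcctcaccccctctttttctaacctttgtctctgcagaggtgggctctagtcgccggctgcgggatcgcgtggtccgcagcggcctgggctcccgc
A CCAAT match stood in the windows of Hoxd10, Hoxd8 and Hoxd3, and it stood in 37.4% of the 32851 windows in the table. The GC box had 2 matches in the window of Hoxd9 and was in 35.7% of all windows. TATAAA, the TATA box, was in none of these 4 windows and in 13.6% of all. TGATTNAT, the composite site of a HOX and a PBX protein, was also in none of the 4 and in 3.22% of all windows. The share of G and C was 62.7% for Hoxd10, 68.3% for Hoxd9, 46.7% for Hoxd8 and 54.0% for Hoxd3.

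Most members were low in level. FPKM values are scaled to both gene length and library size, so levels can be compared between genes. Over the 12 libraries of the Zbtb16 table the median Hox gene was at 0.312 FPKM, against 3.53 FPKM for all genes, and in the Sox3 table these values were 0.435 and 4.28 FPKM. A mean of 1 FPKM was reached in at least 1 group by 9 of 30 members in the Zbtb16 mice and by 11 of 26 in the Sox3 mice. Hoxd8 was the highest member in all 8 groups, from 6.04 ± 1.25 FPKM (SD, n = 3) in null THY1+ uSPG to 26.1 ± 5.60 FPKM in Sox3 cKO KIT+ dSPG. Of the summed FPKM of all members, the Hoxd genes made up between 54.2% and 79.4% on average in a group, and the Hoxa genes between 1.2% and 4.5%. Genes with a mean of at least 0.1 FPKM over the 12 libraries were tested, which left 24 members for the Zbtb16 mice and 25 for the Sox3 mice. Left out were Hoxa3, Hoxa9, Hoxa10, Hoxb1, Hoxb5 and Hoxd1 in the first and Hoxa9 in the second. Of the 39 Hox cluster genes that GENCODE annotates in 4 clusters, 9 were not analysed here, nor were Hoxa3, Hoxa10, Hoxb1 and Hoxd1 in the Sox3 mice.

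**Figure D1:**
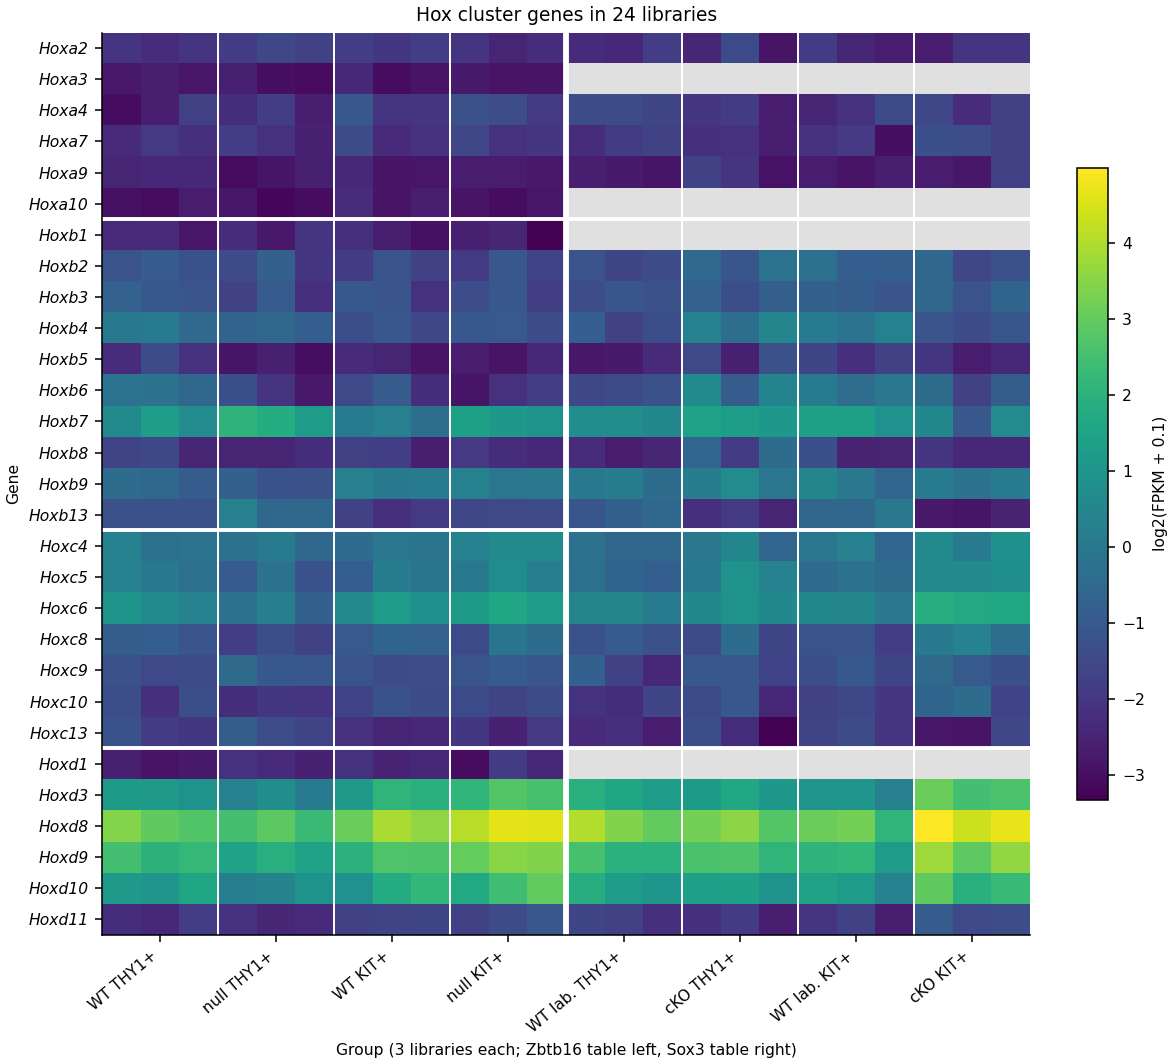
Level of each Hox cluster gene reported here (rows, by cluster and paralogue number) in each of 24 libraries (columns, 3 per group), as log2(FPKM + 0.1); grey cells are genes not analysed in the Sox3 table. Hoxd8 is the brightest row in every group, and the Hoxa rows stay dark.

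Depth sets how far the low members can be read. The libraries held 25.95 to 35.19 M reads in the Zbtb16 table, while in the Sox3 table those of replicate 1 held 28.25 to 31.89 M reads and those of replicates 2 and 3 held 11.02 to 14.92 M reads. There were 23 of 360 Hox values on 3 reads or fewer in the first table and 39 of 312 in the second. The targeted genes followed the genotype labels, with Zbtb16 lower in null THY1+ uSPG (log2 difference -1.59, limma adjusted p 6.80e-04) and in null KIT+ dSPG (-1.45, adjusted p 0.00502), and Sox3 lower in the cKO libraries (-6.41, adjusted p 2.82e-06). The sorting markers followed the fraction labels in the Zbtb16 mice, but in the WT libraries of the Sox3 table they contradicted them. Thy1 levels there were 0.213 to 0.254 FPKM under the THY1+ label and 3.59 to 4.06 FPKM under the KIT+ label, while the cKO libraries held 3.61 to 5.26 FPKM in THY1+ uSPG and 0.244 to 0.292 FPKM in KIT+ dSPG. These WT libraries are called "labelled THY1+" and "labelled KIT+" and were not regrouped. The change averaged over both labelled fractions is the same if the WT labels are exchanged, and it was therefore read first.

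Null and WT cells were compared in each fraction to ask which Hox genes differ in level without ZBTB16. A gene was called when its limma p, adjusted over all genes tested, was at most 0.05 and its change at least 1.5-fold on the log2(FPKM + 0.1) scale, which understates the change of low genes. In THY1+ uSPG 2 of 24 members were called, with Hoxb13 higher and Hoxb6 lower in null cells, where 3.98% of all genes were called. The median change of the members was -0.471 against -0.027 over all genes. In KIT+ dSPG none of the 24 was called, and 0.259% of all genes were. There the median change was 0.183 against 0.006, and an unadjusted p under 0.05 was reached by 6 members and by 3863 of 22374 genes. Averaged over both fractions, a comparison added after the data were seen, Hoxb13 and Hoxb7 were called higher and Hoxb6 lower in null cells, 3 of 24 against 2.30% of all genes. The change in KIT+ dSPG less that in THY1+ uSPG (the interaction) was called for none of the 24 and for 0.0313% of all genes, with an unadjusted p under 0.05 for 9 members and for 5014 of 22374 genes.

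Groups that do not overlap give a second view that needs no model. In THY1+ uSPG 7 members had every null library below every WT library, namely Hoxb4, Hoxb6, Hoxc6, Hoxc8, Hoxd3, Hoxd9 and Hoxd10, and 14.1% of all genes did. The 4 members with every null library above, among them Hoxa2, Hoxb13 and Hoxc9, stand against 15.5% of all genes. In KIT+ dSPG 7 members were above in every null library, Hoxb7, Hoxb13, Hoxc4, Hoxc9, Hoxd3, Hoxd8 and Hoxd9, against 8.73% of all genes, and Hoxa2 alone was below, against 8.77%. Hoxb13 and Hoxc9 were thus above WT in both fractions, and Hoxd3 and Hoxd9 were below in the first and above in the second.

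**Figure D2:**
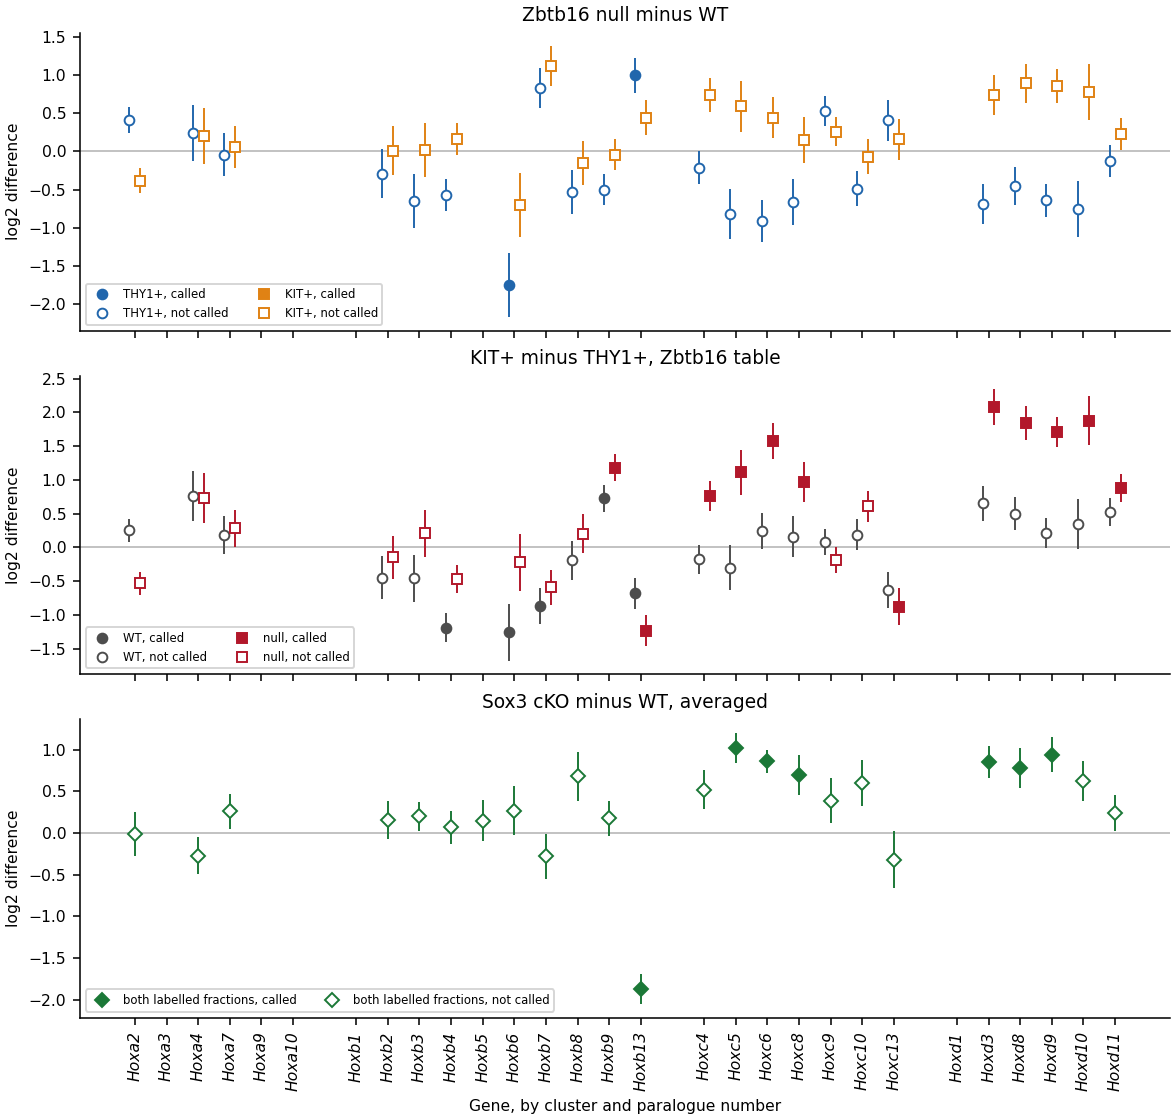
Log2 differences on the FPKM + 0.1 scale with standard errors (bars), for tested members reported here, ordered by cluster; filled symbols were called. In the upper panel the Hoxd3 to Hoxd10 symbols lie below 0 in THY1+ and above 0 in KIT+ cells, the middle panel shows KIT+ minus THY1+ for WT and null cells, and in the lower panel Hoxb13 stands lowest.

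The Hoxd genes had null-against-WT differences of opposite sign in the fractions of the Zbtb16 table, none of them called. Hoxd8 (ENSMUSG00000027102, chr2:74704615-74707933, plus strand), a gene of the embryonic trunk, was at 10.9, 7.64 and 6.62 FPKM in the 3 WT THY1+ libraries and at 5.72, 7.42 and 4.99 FPKM in the 3 null ones. Among KIT+ libraries it was at 8.49, 15.2 and 12.1 FPKM in WT and at 17.0, 24.9 and 24 FPKM in null libraries. The groups overlapped in THY1+ uSPG and were apart in KIT+ dSPG, with log2 differences of -0.45 (SE 0.25, limma adjusted p 0.292) and 0.89 (SE 0.25, adjusted p 0.166). Hoxd9 (chr2:74697727-74700208), which patterns the forelimb and lumbar spine with its paralogues, was at 5.61, 4.06 and 4.54 FPKM in WT and 2.65, 3.66 and 2.70 FPKM in null THY1+ uSPG. Its KIT+ libraries held 3.92, 6.48 and 6.31 FPKM in WT and 8.14, 11.4 and 10.6 FPKM in null cells. The groups did not overlap in either fraction, and the differences were -0.64 (adjusted p 0.111) and 0.86 (adjusted p 0.149).

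Hoxd3 and Hoxd10 had the same signs. Hoxd3 (chr2:74711927-74748442), a paralogue group 3 gene of the neck region, was at 2.22, 2.14 and 1.79 FPKM in WT and 1.16, 1.63 and 0.984 FPKM in null THY1+ libraries, and at 2.18, 4.21 and 3.79 FPKM in WT and 4.34, 6.76 and 5.80 FPKM in null KIT+ libraries. No overlap was seen in either fraction (differences -0.69, adjusted p 0.146, and 0.74, adjusted p 0.211). Hoxd10 (chr2:74691924-74695105), a gene of the lumbar cord and hindlimb, was at 2.15, 1.92 and 2.94 FPKM in WT and 1.08, 1.22 and 1.77 FPKM in null THY1+ uSPG. Its KIT+ libraries overlapped, at 1.73, 3.36 and 4.43 FPKM in WT and 3.23, 5.38 and 7.94 FPKM in null cells. The interaction of Hoxd9 was 1.5 (SE 0.31, limma adjusted p 0.0930) and that of Hoxd8 was 1.34 (adjusted p 0.0944). That of Hoxd3 was 1.43 (adjusted p 0.0944) and that of Hoxd10 was 1.53 (adjusted p 0.136), and none of these passed the threshold. In an alternative fit with the replicate number as a block, each of these Hoxd genes was called, with 2756 genes in all against 7. No label says whether these numbers pair the samples. Without null KIT+ replicate 1, which held the lowest Hoxd levels of its group, Hoxd3, Hoxd8, Hoxd9 and Hoxc8 were called for the interaction, with 867 genes in all. Hoxd11, the next gene of the cluster, stayed low at 0.0844 to 0.377 FPKM over the 12 libraries, and Hoxd1 at its other end at 0.0207 to 0.180 FPKM.

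**Figure D3:**
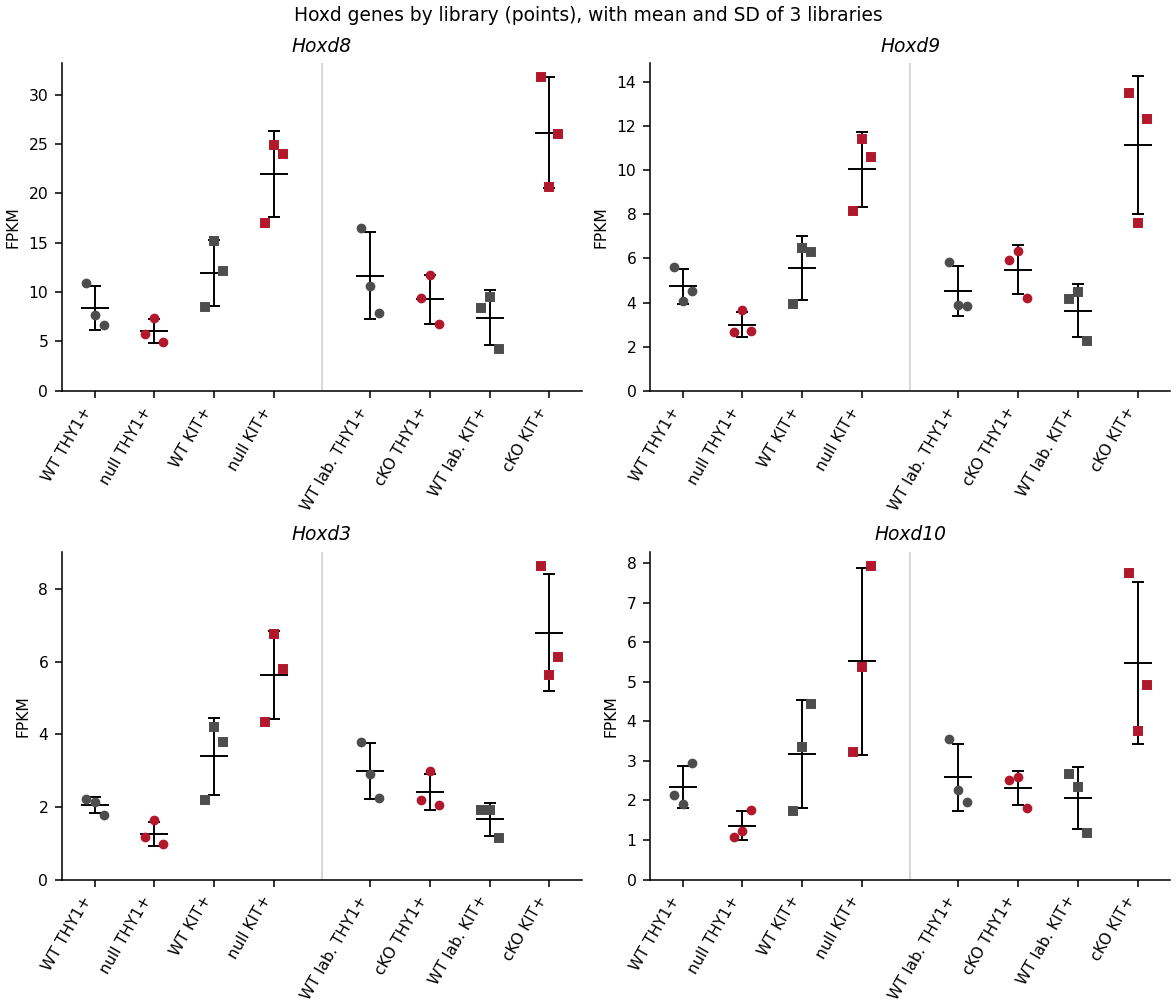
FPKM of Hoxd8, Hoxd9, Hoxd3 and Hoxd10 in each library (points; grey WT, red mutant, circles THY1+ and squares KIT+ by label), with the mean and SD of 3 libraries; the Zbtb16 table is left of the grey line and the Sox3 table right of it. The highest values stand in null KIT+ and cKO KIT+ libraries.

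Exons of Hoxd3 overlap those of the antisense Hoxd3os1 and Haglr in GENCODE, and whether strand was used in counting was not stated, so these values are uncertain. On the same strand, exons of Hoxd3 also overlap those of Hoxd4 and Gm28230. Exons of Hoxd10 and of Hoxd11 overlap those of Gm28309, again on the same strand. Such same-strand genes may share reads whether or not strand was used. Hoxd3os1 was at 1.91, 1.85 and 1.60 FPKM in WT and 1.27, 1.18 and 0.958 FPKM in null THY1+ libraries, and at 2.0, 3.73 and 3.38 FPKM in WT and 3.64, 5.75 and 4.96 FPKM in null KIT+ libraries, the same order of groups as Hoxd3.

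The Hoxc genes were lower in summed level than the Hoxd genes in every group. Hoxc6, a thoracic gene and the highest of them in the Zbtb16 table, was at 1.88, 1.46 and 1.19 FPKM in WT and 0.766, 1.09 and 0.485 FPKM in null THY1+ uSPG, with no overlap (log2 difference -0.91, SE 0.27, limma adjusted p 0.0798). Among KIT+ libraries it was at 1.40, 2.31 and 1.70 FPKM in WT and 2.23, 2.85 and 2.25 FPKM in null libraries, which overlapped. Hoxc4 stood at 0.658, 0.867 and 0.821 FPKM in WT and 1.16, 1.49 and 1.45 FPKM in null KIT+ libraries, apart from each other (difference 0.74, adjusted p 0.177), and at 1.19, 0.742 and 0.798 FPKM and 0.750, 0.966 and 0.602 FPKM in the THY1+ libraries. For Hoxc5 the THY1+ libraries held 1.16, 0.937 and 0.733 FPKM in WT and 0.425, 0.788 and 0.329 FPKM in null cells, and the KIT+ libraries 0.454, 1.02 and 0.844 FPKM and 0.923, 1.54 and 1.09 FPKM. Hoxc8 was at 0.448, 0.463 and 0.361 FPKM in WT THY1+, 0.185, 0.30 and 0.214 FPKM in null THY1+, 0.397, 0.544 and 0.515 FPKM in WT KIT+ and 0.268, 0.845 and 0.669 FPKM in null KIT+ libraries. None of these differences between genotypes was called. Exons of Hoxc5 and Hoxc10 overlap in the annotation and their values may share reads.

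Among the Hoxb genes, neighbours had differences of opposite sign. Hoxb7 (ENSMUSG00000038721, chr11:96286623-96290162, plus strand), a gene of the thorax and of the ducts of the developing kidney, was at 1.48, 2.44 and 1.51 FPKM in WT and 4.16, 3.46 and 2.31 FPKM in null THY1+ uSPG, where 1 null library lay below the highest WT library. Among KIT+ libraries it was at 0.954, 1.14 and 0.702 FPKM in WT and 2.52, 2.06 and 1.80 FPKM in null libraries, with no overlap. The differences were 0.83 (SE 0.26, limma adjusted p 0.0914) and 1.12 (SE 0.26, adjusted p 0.129), neither of them called. Averaged over both fractions the difference was 0.98 (SE 0.19, adjusted p 0.0147), a 1.97-fold rise, and the call was kept in all 18 alternatives run (adjusted p 0.00283 to 0.0456).

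Hoxb6 (chr11:96292476-96301569), the next gene of the cluster and one also used by early blood progenitors, had the opposite sign. It was at 0.80, 0.786 and 0.584 FPKM in WT and 0.308, 0.140 and 0.0474 FPKM in null THY1+ uSPG, with no overlap and a log2 difference of -1.75 (SE 0.42, limma adjusted p 0.0358). Among KIT+ libraries it was at 0.254, 0.425 and 0.114 FPKM in WT and 0.0371, 0.129 and 0.193 FPKM in null libraries, which overlapped (difference -0.70, adjusted p 0.396). These values rest on few reads, with 137 reads over the 3 WT THY1+ libraries and 29 over the 3 null ones. Hoxb4, which promotes growth of blood stem cells, was at 0.928, 0.971 and 0.623 FPKM in WT and 0.522, 0.595 and 0.466 FPKM in null THY1+ libraries, apart from each other but not called (difference -0.57, adjusted p 0.136).

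Hoxb13 (chr11:96194316-96197447), the most posterior gene of its cluster, known from the tail bud, hindgut and prostate, was at 0.316, 0.317 and 0.318 FPKM in WT and 1.13, 0.593 and 0.579 FPKM in null THY1+ uSPG. That was a log2 difference of 1.0 (SE 0.23, limma adjusted p 0.0315), on 64 and 145 reads over the groups. Among KIT+ libraries it was at 0.207, 0.116 and 0.169 FPKM in WT and 0.245, 0.258 and 0.258 FPKM in null libraries, again without overlap (difference 0.44, adjusted p 0.345). The calls of Hoxb6 and Hoxb13 in THY1+ uSPG were each lost when any 1 of the 3 WT THY1+ libraries was left out and with a pseudocount of 1. Hoxb6 was also lost without null THY1+ replicate 2 or 3, and Hoxb13 without replicate 1 or 3, and over all 18 alternatives the adjusted p reached 0.133 for Hoxb6 and 0.101 for Hoxb13. Their averaged calls were lost in 12 and 10 of 17 alternatives.

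**Figure D4:**
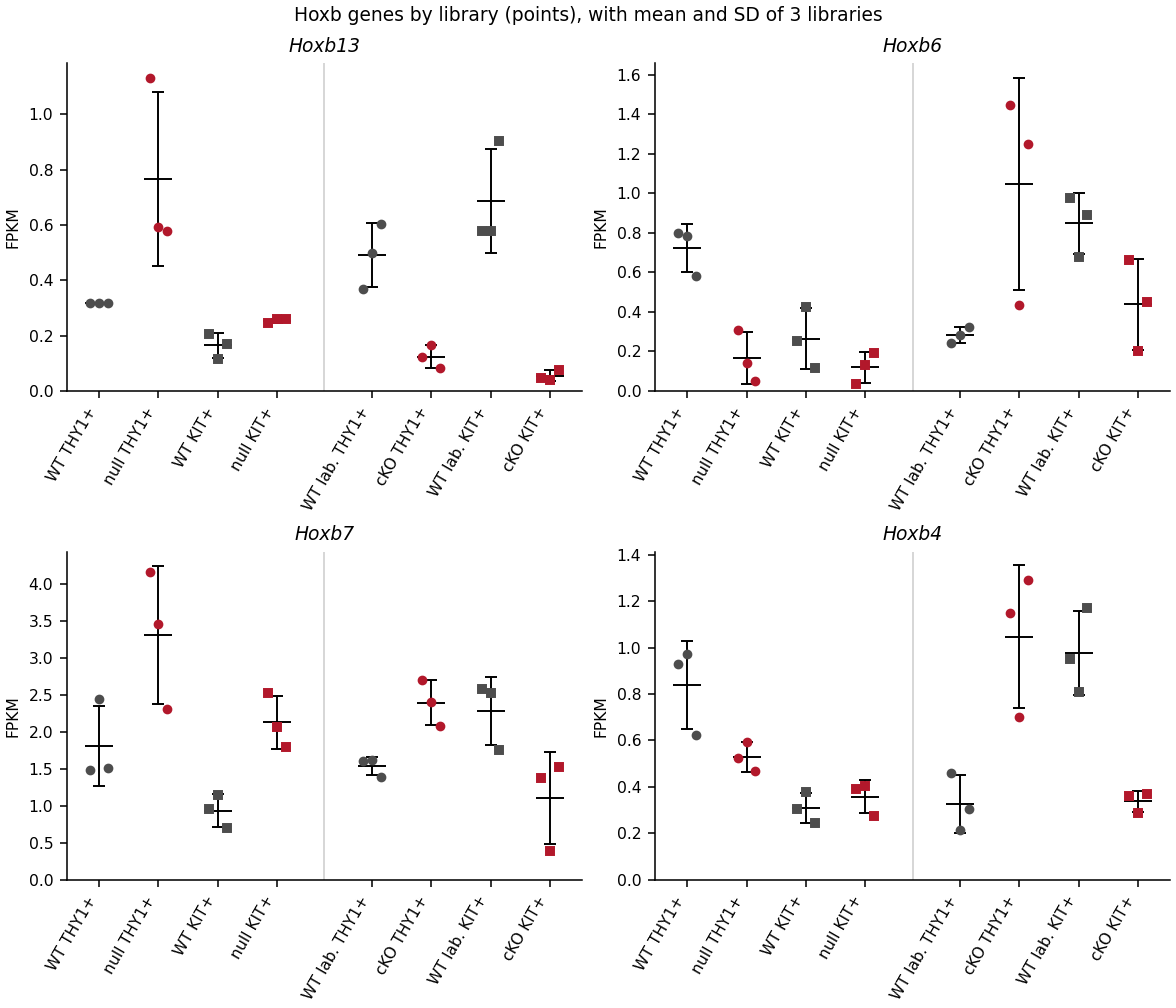
FPKM of Hoxb13, Hoxb6, Hoxb7 and Hoxb4 in each library (points; grey WT, red mutant, circles THY1+ and squares KIT+ by label), with the mean and SD of 3 libraries; the Zbtb16 table is left of the grey line and the Sox3 table right of it. Hoxb13 is above WT in both null groups and below WT in both cKO groups.

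Hoxa genes were the lowest cluster. None of them was called between Zbtb16 genotypes. Hotairm1, a long noncoding RNA of this cluster, was called higher in null THY1+ uSPG. Hotairm1 was at 0.551, 0.390 and 0.187 FPKM in WT and 1.32, 0.921 and 1.09 FPKM in null libraries (difference 1.41, SE 0.28, limma adjusted p 0.0180). It shares its locus with reads of the opposite strand, and these could not be told apart if strand was not used. Of the 12 cluster-bound noncoding RNAs and Evx genes listed, 5 were tested, and Hotairm1 was the only call between Zbtb16 genotypes. Of all genes 3.98% were called in THY1+ uSPG and 0.259% in KIT+ dSPG.

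WT cells of the Zbtb16 table show how the fractions differ. Of 24 members 5 were called between KIT+ dSPG and THY1+ uSPG, all in the Hoxb cluster, where 21.2% of all genes were called. Lower in KIT+ dSPG were Hoxb4 (-1.19, SE 0.21, limma adjusted p 0.00149), Hoxb6 (-1.26, adjusted p 0.0413), Hoxb7 (-0.87, adjusted p 0.0281) and Hoxb13 (-0.68, adjusted p 0.0462). Higher was Hoxb9, a thoracic gene, at 0.671, 0.608 and 0.434 FPKM in THY1+ and 1.12, 0.927 and 0.960 FPKM in KIT+ libraries. Hoxb4 was at 0.304, 0.377 and 0.245 FPKM in the WT KIT+ libraries, below each WT THY1+ library. Hoxd3, Hoxd8, Hoxd9 and Hoxd10 were not called here, with differences of 0.65, 0.50, 0.21 and 0.35.

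Within null mice, a comparison added after the data were seen, 12 of 24 members were called between the fractions, 10 of them higher in KIT+ dSPG, against 29.2% of all genes. Higher were Hoxd3 (2.08, SE 0.26, limma adjusted p 1.05e-04), Hoxd10 (1.88), Hoxd8 (1.84), Hoxd9 (1.71), Hoxd11 (0.88), Hoxc6 (1.58), Hoxc5 (1.11), Hoxc8 (0.97), Hoxc4 (0.76) and Hoxb9 (1.18). Hoxb13 (-1.24) and Hoxc13 (-0.88) were lower. Hoxc13, a gene of hair and nail, was at 0.447, 0.295 and 0.226 FPKM in null THY1+ and 0.157, 0.0680 and 0.163 FPKM in null KIT+ libraries. Hoxb9 was at 0.483, 0.325 and 0.318 FPKM and 1.15, 0.872 and 0.897 FPKM in these groups, and Hoxd11 at 0.133, 0.0844 and 0.105 FPKM and 0.207, 0.275 and 0.377 FPKM. Counts of calls in null and in WT mice do not test whether the fraction difference depends on genotype. The interaction tests this gene by gene, and it was called for no member in the main fit.

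The Sox3 cKO and WT libraries were compared first as an average over both labelled fractions. Of 25 members 8 were called, 6 higher and 2 lower in cKO cells, against 10.3% of all genes, and the median change was 0.263 against 0.025. Higher were Hoxc5 (1.02, SE 0.18, limma adjusted p 0.00381), Hoxc6 (0.86, adjusted p 0.00337), Hoxc8 (0.70, adjusted p 0.0487), Hoxd3 (0.85, adjusted p 0.00893), Hoxd8 (0.78, adjusted p 0.0337) and Hoxd9 (0.94, adjusted p 0.00933). Hoxb13 (-1.87, adjusted p 5.47e-04) was among the lower ones. With replicates 2 and 3 alone, which were of like depth, 2 calls were left, Hoxc5 and Hoxb13.

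Hoxb13 fell in both cKO groups. It was at 0.370, 0.500 and 0.604 FPKM in WT labelled THY1+ and 0.577, 0.577 and 0.903 FPKM in WT labelled KIT+ libraries, against 0.123, 0.165 and 0.0811 FPKM in cKO THY1+ and 0.0481, 0.0383 and 0.0766 FPKM in cKO KIT+ libraries. Every WT library was therefore above every cKO library, whichever way the WT labels are read. The 3 cKO KIT+ libraries held 3, 1 and 2 reads of it. Over the group that is 6 reads against 86 in the WT libraries labelled KIT+, a ratio of 12.5 after correction for depth (exact 95% interval 5.51 to 35, counting error only), and against 59 reads in those labelled THY1+ a ratio of 8.65 (3.75 to 24.5). The cKO THY1+ group held 14 reads, a ratio of 3.69 (2.04 to 7.16) to the WT libraries labelled THY1+ and of 5.33 (3.01 to 10.2) to those labelled KIT+. The averaged call of Hoxb13 was lost with a pseudocount of 1 alone among 18 alternatives. In the Zbtb16 null cells the same gene had been higher than WT in both fractions.

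Hoxd and Hoxc genes peaked in cKO KIT+ dSPG. Hoxd8 was at 31.8, 20.6 and 26.0 FPKM there, against 9.40, 11.7 and 6.74 FPKM in cKO THY1+ libraries, 16.5, 10.6 and 7.93 FPKM in WT libraries labelled THY1+ and 8.4, 9.55 and 4.28 FPKM in those labelled KIT+. Hoxd9 was at 13.5, 7.59 and 12.3 FPKM in cKO KIT+, 5.93, 6.32 and 4.22 FPKM in cKO THY1+, 5.82, 3.91 and 3.83 FPKM in WT labelled THY1+ and 4.16, 4.48 and 2.28 FPKM in WT labelled KIT+ libraries. For both genes the lowest cKO KIT+ library was above the highest library of every other group. Hoxd3 was at 8.65, 5.64 and 6.13 FPKM in cKO KIT+, 2.20, 2.99 and 2.06 FPKM in cKO THY1+, 3.8, 2.91 and 2.25 FPKM in WT labelled THY1+ and 1.93, 1.93 and 1.14 FPKM in WT labelled KIT+ libraries. Hoxd10 was at 7.74, 3.76 and 4.91 FPKM, 2.51, 2.60 and 1.82 FPKM, 3.55, 2.27 and 1.95 FPKM and 2.68, 2.33 and 1.18 FPKM in the same order of groups, and its averaged difference of 0.62 was not called (limma adjusted p 0.0799).

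Hoxc6 was at 3.55, 3.11 and 2.97 FPKM in cKO KIT+ libraries, above all others, with 1.34, 1.81 and 1.39 FPKM in cKO THY1+, 1.29, 1.29 and 0.976 FPKM in WT labelled THY1+ and 1.33, 1.29 and 0.910 FPKM in WT labelled KIT+ libraries. Hoxc5 was higher in both cKO groups, at 0.933, 1.82 and 1.19 FPKM in THY1+ and 1.42, 1.42 and 1.67 FPKM in KIT+ libraries, than in the WT libraries, at 0.741, 0.547 and 0.455 FPKM labelled THY1+ and 0.645, 0.781 and 0.668 FPKM labelled KIT+. Hoxc8 was at 0.265, 0.671 and 0.233 FPKM in cKO THY1+, 0.924, 1.18 and 0.698 FPKM in cKO KIT+, 0.327, 0.416 and 0.322 FPKM in WT labelled THY1+ and 0.341, 0.350 and 0.186 FPKM in WT labelled KIT+ libraries. Only its cKO KIT+ group stood apart.

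Within the fractions as labelled, directions rest on WT labels that Thy1 and Kit contradict. In cKO against WT labelled THY1+, 5 of 25 members were called, against 29.1% of all genes, with Hoxb4, Hoxb6, Hoxb8 and Hoxc5 higher and Hoxb13 lower in cKO cells. In cKO against WT labelled KIT+, 12 were called, against 25.1% of all genes. Hoxa7, Hoxc5, Hoxc6, Hoxc8, Hoxd3, Hoxd8, Hoxd9, Hoxd10 and Hoxd11 were higher and Hoxb4, Hoxb7 and Hoxb13 lower. Hoxb4 had opposite signs in these comparisons, at 1.15, 0.70 and 1.29 FPKM in cKO THY1+ and 0.358, 0.285 and 0.367 FPKM in cKO KIT+ libraries, against 0.461, 0.213 and 0.303 FPKM in WT labelled THY1+ and 0.952, 0.808 and 1.17 FPKM in WT labelled KIT+ libraries.

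Groups with alike Thy1 and Kit levels were then compared, after the data were seen. For cKO THY1+ uSPG against WT labelled KIT+, Hoxb13 was the only 1 of 25 members called (-1.81, SE 0.25, limma adjusted p 0.0253), and 0.0707% of all genes were called. This call was lost in 11 of 19 alternatives, among them without any 1 of the 3 libraries of either group. For cKO KIT+ dSPG against WT labelled THY1+, 9 of 25 were called, against 17.0% of all genes. Hoxd8 (1.2, adjusted p 0.0243), Hoxd9 (1.27), Hoxd3 (1.17), Hoxd10 (1.03), Hoxc5 (1.25), Hoxc6 (1.37) and Hoxc8 (1.16) were higher in cKO cells, and Hoxb13 (-1.93) was among the lower ones.

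Between the cKO fractions 11 of 25 members were called, against 22.7% of all genes, with Hoxa7, Hoxc6, Hoxc8, Hoxd3, Hoxd8, Hoxd9, Hoxd10 and Hoxd11 higher and Hoxb4, Hoxb7 and Hoxb8 lower in KIT+ dSPG. With replicates 2 and 3 alone 1 call was left, Hoxd3. Hoxb7 was at 2.70, 2.41 and 2.08 FPKM in cKO THY1+ and 1.38, 0.383 and 1.53 FPKM in cKO KIT+ libraries, against 1.60, 1.62 and 1.39 FPKM in WT labelled THY1+ and 2.58, 2.52 and 1.75 FPKM in WT labelled KIT+ libraries. Its averaged cKO difference was -0.28 (limma adjusted p 0.477), not called. Hoxb6 was at 1.45, 0.437 and 1.25 FPKM in cKO THY1+, 0.665, 0.204 and 0.448 FPKM in cKO KIT+, 0.242, 0.283 and 0.321 FPKM in WT labelled THY1+ and 0.975, 0.678 and 0.892 FPKM in WT labelled KIT+ libraries. Hoxb8 held 0.551, 0.172 and 0.676 FPKM in cKO THY1+ and 0.147, 0.0959 and 0.0958 FPKM in cKO KIT+ libraries, and Hoxa7 0.118, 0.126 and 0.0622 FPKM and 0.308, 0.294 and 0.206 FPKM in the same groups, each at low read counts.

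Genes that act with the Hox genes were followed as lists. Of 9 cofactor genes of the PBX, MEIS and PKNOX families, none was called between Zbtb16 genotypes in either fraction. Of all genes 3.98% were called in THY1+ uSPG and 0.259% in KIT+ dSPG. On average 4 of the 9 were called higher in Sox3 cKO cells, where 10.3% of all genes were called in either direction. The 4 included Pknox2 (0.88, limma adjusted p 0.00375), Meis1 (0.85, adjusted p 0.00730) and Pbx3 (0.60, adjusted p 0.00650). Pbx2 was the highest cofactor, at a mean of 19.8 to 38.4 FPKM in the 8 groups. Of 20 Polycomb, Trithorax and histone demethylase genes, Pcgf2, a Polycomb subunit, was called lower in null THY1+ uSPG (-0.63, SE 0.15, limma adjusted p 0.0332) at 1.88, 2.22 and 1.69 FPKM against 2.84, 3.45 and 2.85 FPKM in WT. It was the only call of the 20 in THY1+ uSPG, against 3.98% of all genes. None was called in null KIT+ dSPG or in the averaged cKO comparison, against 0.259% and 10.3% of all genes. Hoxd3os1 (1.01, limma adjusted p 0.00730) and Haglr (0.86, adjusted p 0.00941), antisense RNAs of the Hoxd cluster, were called higher in cKO cells on average. Cdx1, the only member of the Cdx family analysed here, was not called between Zbtb16 genotypes or in the averaged cKO comparison.

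In the Zbtb16 table the sums of Leydig and of Sertoli cell markers had the same order of group means as the Hoxd genes. The sums of stromal, endothelial, macrophage and T cell markers did not. Within each fraction, however, the mean stromal, endothelial and macrophage sums differed between genotypes in the same direction as the Hoxd sum. The stromal means were 637 FPKM in WT and 399 FPKM in null THY1+ libraries, and 365 and 614 FPKM in the KIT+ groups. The endothelial means were 28.1 and 22.7 FPKM, and 22.9 and 32.0 FPKM, in the same order. The T cell sums did so in THY1+ libraries alone. The summed level of 6 Leydig cell markers (Hsd3b1, Cyp17a1 and others) was 83.1 to 119 FPKM in WT and 49.8 to 79.6 FPKM in null THY1+ libraries, and 1215 to 2272 FPKM in WT and 2045 to 3122 FPKM in null KIT+ libraries. The summed Hoxd level was 17.7 ± 2.90 and 11.9 ± 1.95 FPKM in the THY1+ groups and 24.4 ± 6.82 and 43.5 ± 9.20 FPKM in the KIT+ groups, in the same order. In the cKO KIT+ libraries the sums were 2493 to 4941 FPKM for the Leydig markers and 37.8 to 62.1 FPKM for the Hoxd genes. Each was the highest of the Sox3 table. The Sertoli sums there, 244 to 262 FPKM, and the endothelial sums, 44.3 to 73.6 FPKM, were also the highest of that table. The stromal, macrophage and T cell sums were not. In WT and null KIT+ dSPG of the Zbtb16 mice and in cKO KIT+ dSPG, the library with the lowest Hoxd sum also had the lowest Leydig sum. In every other group, among them all THY1+ groups and the WT libraries of the Sox3 table, it did not. The library with the lowest Hoxd sum also had the lowest stromal sum in the same KIT+ groups. That held too in null THY1+, cKO THY1+ and WT labelled KIT+ libraries, but not in WT THY1+ or WT labelled THY1+ libraries. No Leydig marker was at 0 in any group.

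Of the other lists, the 13 peritubular and stromal markers (Dcn, Col3a1 and others) summed to 520 to 774 FPKM in WT and 328 to 540 FPKM in null THY1+ libraries, and to 248 to 494 FPKM in WT and 392 to 799 FPKM in null KIT+ libraries. The 12 Sertoli cell markers summed to 51.6 to 99.7 and 30.6 to 43.5 FPKM in the THY1+ groups and to 130 to 150 and 176 to 202 FPKM in the KIT+ groups. The 9 macrophage markers analysed summed to 898 to 1043 FPKM in WT and 415 to 801 FPKM in null THY1+ libraries and to at most 15.1 FPKM in the KIT+ libraries of that table. The 8 endothelial markers summed to 23.5 to 31.2 FPKM in WT and 20.0 to 27.4 FPKM in null THY1+ libraries, and to 16.8 to 31.5 and 21.8 to 38.6 FPKM in the KIT+ groups. The 8 T cell markers, which include other cells that carry THY1, summed to 13.8 to 15.4 FPKM in WT and 10.5 to 11.6 FPKM in null THY1+ libraries and to at most 2.72 FPKM in KIT+ libraries. None of the Leydig, Sertoli, stromal or endothelial markers was called between Zbtb16 genotypes. Their median log2 differences in THY1+ uSPG were -0.84, -0.67, -0.60 and -0.44 in that order, against -0.027 over all genes. In KIT+ dSPG the medians were 0.60, 0.22, 0.71 and 0.46, against 0.006. Cd68 of the macrophage list and Cd28 of the T cell list were called lower in null THY1+ uSPG. Of all genes 3.98% were called in THY1+ uSPG and 0.259% in KIT+ dSPG. In the averaged cKO comparison 4 of 6 Leydig, 4 of 11 Sertoli, 4 of 13 stromal and 3 of 8 endothelial markers were called higher. None of the 9 macrophage and 8 T cell markers was called there, and 10.3% of all genes were called in either direction. The stromal sums were 476 to 1053 FPKM in cKO THY1+ and 576 to 693 FPKM in cKO KIT+ libraries. They were 240 to 393 FPKM in WT labelled THY1+ and 351 to 612 FPKM in WT labelled KIT+ libraries. The 15 markers of undifferentiated spermatogonia summed to 225 to 268 FPKM in WT and 213 to 274 FPKM in null THY1+ libraries, and the 6 of differentiating spermatogonia to 333 to 339 FPKM in WT and 246 to 286 FPKM in null KIT+ libraries. The 8 germ cell markers summed to 1050 to 1220 FPKM in WT and 1208 to 1505 FPKM in null THY1+ libraries, to 1003 to 1217 and 758 to 1092 FPKM in the KIT+ groups, and to 749 to 1047 FPKM in cKO KIT+ libraries. In bulk libraries fewer cells of a type and less RNA per cell cannot be told apart, and the part of somatic cells in the Hox differences was not tested.

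**Figure D5:**
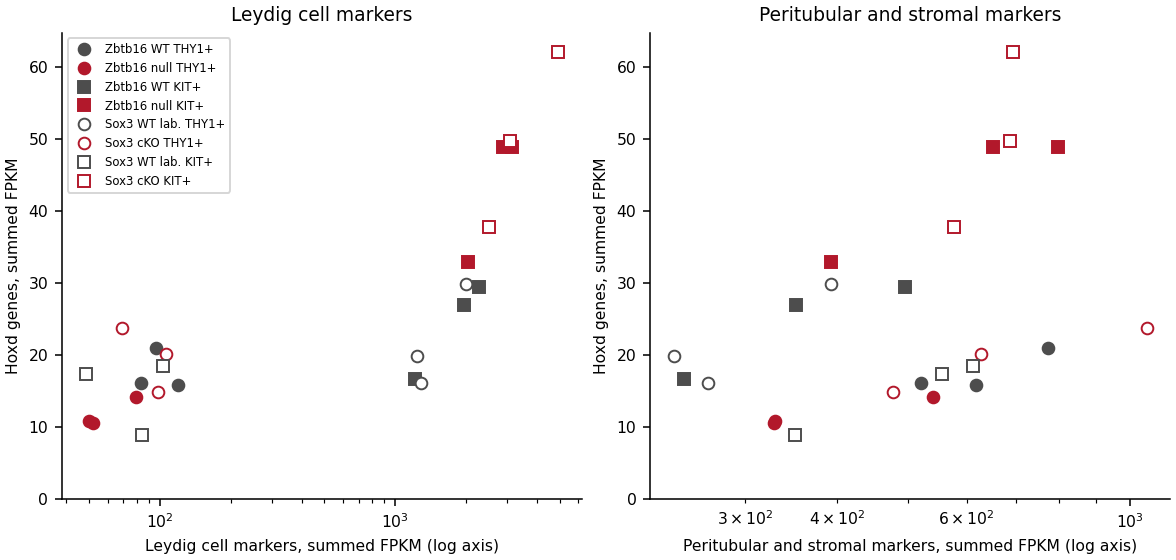
Summed FPKM of the Hoxd genes (vertical axis) beside the summed FPKM of Leydig cell markers (left) and of peritubular and stromal markers (right, both log axes) in each of 24 libraries; filled symbols are Zbtb16 and open symbols Sox3 libraries, grey WT and red mutant, circles THY1+ and squares KIT+ by label. Null and cKO KIT+ libraries stand highest on the vertical axis, and their Leydig sums of 2045 FPKM and more overlap only the upper end of the WT KIT+ range, which reaches 2272 FPKM.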

How the data were processed

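RNA was sequenced from 24 libraries in 8 groups of 3, each from pooled testes of 3 mice at postnatal day 7. The authors aligned single reads from ribosome-depleted, stranded libraries with Novoalign to mm10 with Ensembl annotation and deposited FPKM values per gene. The strand setting of the counting was not given in the sources used here. Each table was normalized by itself, and all tests stayed within a table. The authors used DESeq2, a count test. The deposited values were FPKM, so limma 3.58.1 (R 4.3.3) was used here instead.

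Genes with a mean of at least 0.1 FPKM over the 12 libraries of a table were fitted as log2(FPKM + 0.1) with 4 group means and trended, robust empirical Bayes variances, and p-values were adjusted by Benjamini-Hochberg over all genes tested. The fit was tested on simulated data. Low FPKM values gave whole reads for 672 of 672 Hox values within 0.01 reads. These reads gave depth, the floor of 3 reads and exact 95% intervals, which cover counting error only. Values in every library are given for members called in a comparison or at a mean of at least 1 FPKM in a group, and for others as counts or ranges, beside the targeted genes, Thy1, Kit and gene lists. Members and lists were chosen with earlier results of these data known, and the comparisons named as added were chosen after seeing the data. Alternatives were other pseudocounts, filters, scaling, a replicate block, fits of 2 groups and each library left out. Some genes counted in the totals are not reported here by name.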

Additional observations from a re-analysis of the deposited data

Results flagged for a closer look

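Among Zbtb16 libraries 3 of 24 members had every null library on one side of every WT library in THY1+ uSPG and on the other side in KIT+ dSPG, as did 2.48% of all genes tested. For Hoxd9 the null-against-WT log2 difference in KIT+ dSPG less that in THY1+ uSPG was 1.5, for Hoxd3 it was 1.43 and for Hoxa2 it was -0.78. In the main fit the limma test of this difference was not passed by any of the 3. With the replicate number as a block it was passed by Hoxd9 and Hoxd3.

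Among Sox3 libraries 3 of 25 members showed such opposite, non-overlapping shifts between the fractions as labelled, as did 19.8% of all genes tested. The values were -1.77 for Hoxb7, -2.35 for Hoxb6 and -2.73 for Hoxb4. These differences were not tested, and they rest on WT libraries whose Thy1 and Kit levels go against their labels.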

How the results depend on the processing

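The differences of called members kept their sign under every alternative run, and those of most members that were not called were not followed across alternatives. Median-ratio scaling and no filter on low values moved no count of Hox calls by over 1.5 times, and the former lowered the interaction's calls over all genes from 7 to 2. In the comparisons within the Zbtb16 table, a pseudocount of 1 left 0 Hox calls in null against WT THY1+ uSPG, 0 between WT fractions, 5 between null fractions and 1 in the averaged comparison, and a mean of at least 1 FPKM left 0, 1, 5 and 1. A pseudocount of 0.01 left 1 and a fit of the 2 groups alone left 0 Hox calls in THY1+ uSPG. In the Sox3 table a pseudocount of 1 left 3 Hox calls in the averaged comparison, 2 as labelled THY1+, 7 as labelled KIT+, 7 between cKO fractions and 0 for cKO THY1+ against WT labelled KIT+, and a mean of at least 1 FPKM left 5, 1, 7, 6 and 0. A pseudocount of 0.01 left 0 in the last of these, and fits of the 2 groups alone left 0 there and 6 between cKO fractions. With replicates 2 and 3 only, an alternative added after seeing the data, the Hox calls were 2, 3, 7, 1 and 0 in the same order and 3 for cKO KIT+ against WT labelled THY1+. The causes were not tested, other than that a filter at 1 FPKM tests fewer members.

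Over all genes, a pseudocount of 1 gave 565 calls against 890 in THY1+ uSPG, 25 against 58 in KIT+ dSPG, 45 against 7 for the interaction, 2883 against 4737 and 4070 against 6532 between WT and null fractions, 157 against 514 averaged, and 1024 against 2188 in the averaged cKO comparison. A mean of at least 1 FPKM gave 468 in THY1+ uSPG, 3139 and 4332 between WT and null fractions, 244 averaged, and 9 against 15 for cKO THY1+ against WT labelled KIT+. Fits of 2 groups alone gave 2 in KIT+ dSPG and 1 in the last of these. Replicates 2 and 3 only gave 597 averaged, 3291 against 5314 as labelled KIT+, 2480 against 4809 between cKO fractions, 0 for cKO THY1+ against WT labelled KIT+ and 987 against 3608 for cKO KIT+ against WT labelled THY1+.

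Leaving out 1 library gave 0 to 2 Hox calls in null against WT THY1+ uSPG, 0 in KIT+ dSPG, 0 to 4 for the interaction, 2 to 5 between WT fractions, 8 to 13 between null fractions and 1 to 2 averaged. It gave 5 to 7 in the averaged cKO comparison, 3 to 7 as labelled THY1+, 9 to 13 as labelled KIT+, 4 to 11 between cKO fractions, 0 to 1 for cKO THY1+ against WT labelled KIT+ and 5 to 9 for cKO KIT+ against WT labelled THY1+. The averaged cKO count was 5 without WT labelled THY1+ replicate 3, WT labelled KIT+ replicate 3 or cKO KIT+ replicate 1. The count between cKO fractions was 4 without cKO THY1+ replicate 3, and between WT fractions 2 without WT THY1+ replicate 2 or WT KIT+ replicate 3.

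No label says whether the replicate numbers pair the samples, and the main fits had no replicate block. The deviations of same-numbered libraries correlated at -0.028 to 0.52 over 18 pairs in the Zbtb16 table. Their mean was 0.326, against -0.164 for pairs of different numbers. In the Sox3 table the range was -0.119 to 0.348 and these means were 0.147 and -0.073. Of the libraries, 11 of 12 and 9 of 12 correlated best with their own number. With the replicate number as a block, 7 Hox genes were called in THY1+ uSPG (1980 genes in all). Among them were Hoxb6, Hoxb7, Hoxb13, Hoxc6, Hoxd3 and Hoxd10. In KIT+ dSPG 2 were called (513 in all), Hoxb7 and Hoxd9. For the interaction 7 were called (2756 in all), Hoxb4, Hoxc5, Hoxc6, Hoxd3, Hoxd8, Hoxd9 and Hoxd10. For cKO THY1+ against WT labelled KIT+ 29 genes were called in all. No other Hox count moved by over 1.5 times under the block. Depth limits members such as Hoxb13 in cKO libraries, which held few reads of it.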
